A study of Homo sapiens with 4 samples.

Results

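A set of 10 genes of the hypoxia-inducible factor (HIF) system were followed in octanoate-treated melanoma cells: the oxygen-regulated HIF subunit genes HIF1A and EPAS1, and 8 HIF target genes that do not belong to glycolysis, namely VEGFA, ADM, CA9, CA12, BNIP3, NDRG1, EGLN3 and KDM3A. They were taken by symbol from a list of names, 10 of the 56832 genes in the deposited expression table, and all 10 had a row there. The cells were A375, an established human melanoma line of genotype WT, grown in DMEM with fetal bovine serum. The vehicle group received isopropanol and the octanoate group 1 mM octanoate, a saturated medium-chain fatty acid, both for 48 h, with 2 libraries each. Both groups are thus the same unmodified line in the same medium, and no low-oxygen treatment is named in the labels. RNA abundance was measured by sequencing, and the stated aim was to find genes and signatures that rise with the treatment.

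HIF is a dimer of an oxygen-regulated alpha subunit and the constitutive partner ARNT. In oxygenated cells, prolyl hydroxylases of the EGLN family mark the alpha subunits for recognition by VHL and degradation, so HIF activity is set largely at the level of protein, which was not measured here. When oxygen is low, the stabilised dimer binds hypoxia response elements, whose core is ACGTG or GCGTG, and raises genes for blood vessel growth, pH control, mitophagy and glycolysis. In tumours this programme is known for its link to vessel growth.

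The libraries held between 67785956 and 78005035 recovered reads, and the 10 most abundant genes took from 4.89% to 5.36% of them. Transcripts of the mitochondrial genome took 3.03% to 3.21%. Replicate libraries differed by more than sampling noise, with a chi-square per degree of freedom of 5.32 for the vehicle pair and 7.37 for the octanoate pair, and were kept as separate samples. The labels do not say whether they came from separate cultures, so the p-values cover no spread beyond that between these libraries. The limma p-values and SEs below also draw on variance pooled over the tested genes, with 21.2 prior degrees of freedom. Of 11 melanoma markers, 10 averaged 10 or more, led by CSPG4, SOX10 and AXL. TYR, the pigment enzyme gene, was near 0 with at most 3.93, and MLANA lay between 34.9 and 52.0. The summed level of these markers was 122343 and 132922 in vehicle and 137913 and 146801 in octanoate. This sum was carried by SOX10, CSPG4 and AXL; CSPG4, AXL and PMEL were called higher, while MITF, S100B and PRAME were called lower. S100B went from 4234 and 3741 in vehicle to 1917 and 1746 in octanoate. Of the other cell types, the 4 leukocyte markers summed to at most 19.6 in any library, the 4 fibroblast markers to between 1086 and 1289, with COL1A1 called lower, and the 3 epithelial markers, nearly all KRT8, to between 3201 and 3903. The part of these transcripts in the results was not tested.

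Upstream sequences of 5 genes are printed because they show the HIF core beside genes that went in opposite directions: CA9, ADM and BNIP3 were lower under octanoate, EPAS1 and CA12 were higher. Each is the 250 bases before a RefSeq transcription start (GRCh38.p14), 5′ to 3′ on the gene's strand. Capitals mark the core ACGTG or GCGTG on either strand, so that a match on the opposite strand reads CACGT or CACGC.
CA9 promoter, chr9:35673678-35673927, plus strand: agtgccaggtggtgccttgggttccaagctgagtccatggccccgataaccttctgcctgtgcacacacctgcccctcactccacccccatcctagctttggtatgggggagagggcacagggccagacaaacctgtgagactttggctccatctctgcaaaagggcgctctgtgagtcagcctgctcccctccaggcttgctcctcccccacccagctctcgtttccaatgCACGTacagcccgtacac
ADM promoter, chr11:10304823-10305072, plus strand: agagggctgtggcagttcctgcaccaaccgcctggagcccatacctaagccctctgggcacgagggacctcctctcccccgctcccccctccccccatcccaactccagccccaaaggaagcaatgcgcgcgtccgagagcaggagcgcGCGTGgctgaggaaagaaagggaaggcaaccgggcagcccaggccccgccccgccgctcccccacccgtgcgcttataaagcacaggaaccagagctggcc
BNIP3 promoter, chr10:131981924-131982173, minus strand: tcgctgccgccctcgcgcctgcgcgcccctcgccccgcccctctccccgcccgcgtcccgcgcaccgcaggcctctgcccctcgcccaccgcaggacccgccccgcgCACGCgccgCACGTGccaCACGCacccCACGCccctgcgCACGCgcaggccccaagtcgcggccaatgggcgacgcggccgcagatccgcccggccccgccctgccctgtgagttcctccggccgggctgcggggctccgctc
EPAS1 promoter, chr2:46297157-46297406, plus strand: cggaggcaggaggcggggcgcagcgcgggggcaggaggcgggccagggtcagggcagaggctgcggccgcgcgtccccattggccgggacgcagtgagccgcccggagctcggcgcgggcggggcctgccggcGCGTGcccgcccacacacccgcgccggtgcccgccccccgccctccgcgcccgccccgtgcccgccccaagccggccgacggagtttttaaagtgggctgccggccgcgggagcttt
CA12 promoter, chr15:63381847-63382096, minus strand: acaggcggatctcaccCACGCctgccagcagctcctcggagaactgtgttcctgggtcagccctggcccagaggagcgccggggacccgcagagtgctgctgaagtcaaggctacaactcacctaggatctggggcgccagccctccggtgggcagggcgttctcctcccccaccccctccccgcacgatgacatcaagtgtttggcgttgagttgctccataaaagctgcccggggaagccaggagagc

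RefSeq windows were found for 8 of the 10 genes, and 7 of these held at least 1 core. Cores of this short kind are common: ACGTG was found in 18.5%, GCGTG in 32.2% and at least one of them in 43.2% of 35116 such windows from all genes. The CA9 core began 18 bases before the start, and that of KDM3A 26 bases before the first of its 2 listed starts and 116 bases before the second. BNIP3 had 6 matches between 143 and 100 bases before the start, 2 of which share the palindrome CACGTG on opposite strands. EPAS1, ADM, HIF1A and CA12 had 1 match each, at 117, 101, 204 and 234 bases before the start. The HIF1A match belongs to the first of 2 listed starts, and the window of the second held none. EGLN3 had none in this window. Genes that rose and genes that fell both held the core, and a match is a stretch of letters, not a measured binding site.

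**Figure D1:**
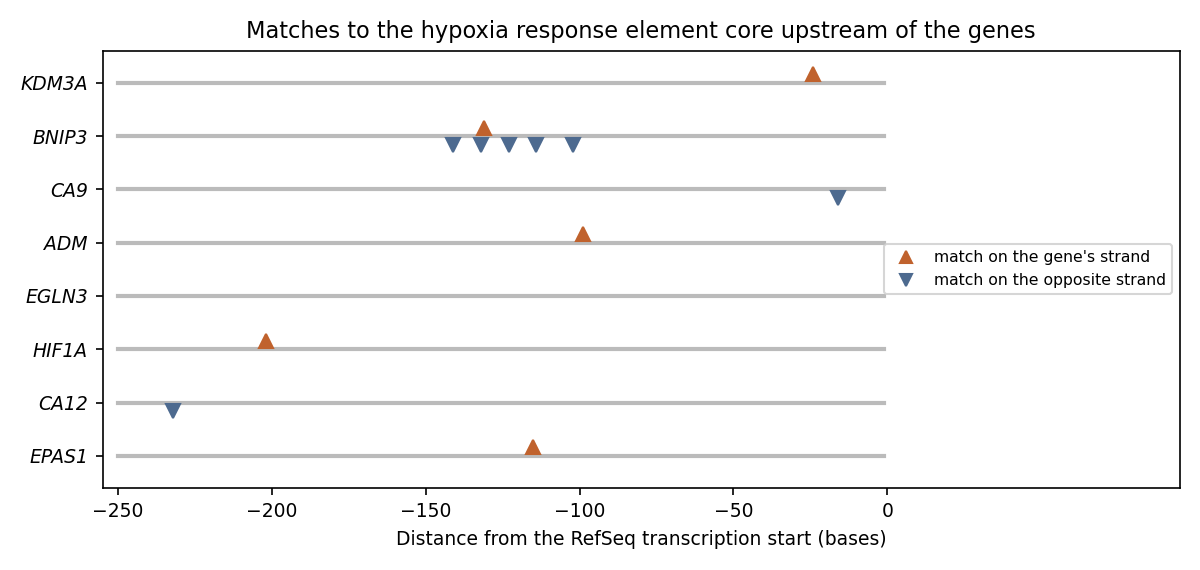
Positions of the core ACGTG or GCGTG in the 250 bases before the RefSeq start of 8 genes (x axis, bases from the start), with 1 line per gene and a triangle per match, pointing up on the gene's strand and down on the opposite strand. BNIP3 carried 6 matches and EGLN3 none. The others had 1 each: EPAS1 and CA12, which rose, CA9, ADM and KDM3A, which fell, and HIF1A. For HIF1A and KDM3A the first listed start is drawn.

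The 10 genes did not respond as a group. EPAS1, VEGFA and CA12 rose, BNIP3, KDM3A, ADM and CA9 fell, and HIF1A, NDRG1 and EGLN3 did not pass the test. Genes were compared with limma on log2(normalised count + 1), and a gene was called at a Benjamini-Hochberg adjusted p under 0.05 over the 20250 genes whose normalised counts averaged 10 or more, a filter that all 10 genes passed. Against 3 of 10 called higher and 4 of 10 called lower stood 16.2% and 13.7% of all tested genes, and 29.9% in either direction. The 10 genes were chosen with earlier results of these data known, which limits this comparison. Among the 5 genes with a mean of at least 1000, 3 were called, where 38.1% of all such genes were. The median log2 difference of the 10 genes was -0.05, beside 0.01 over all tested genes. The groups did not overlap for 8 of the 10 genes, 4 above and 4 below, where 63.1% of all tested genes showed no overlap, 32.6% above and 30.5% below.

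**Figure D2:**
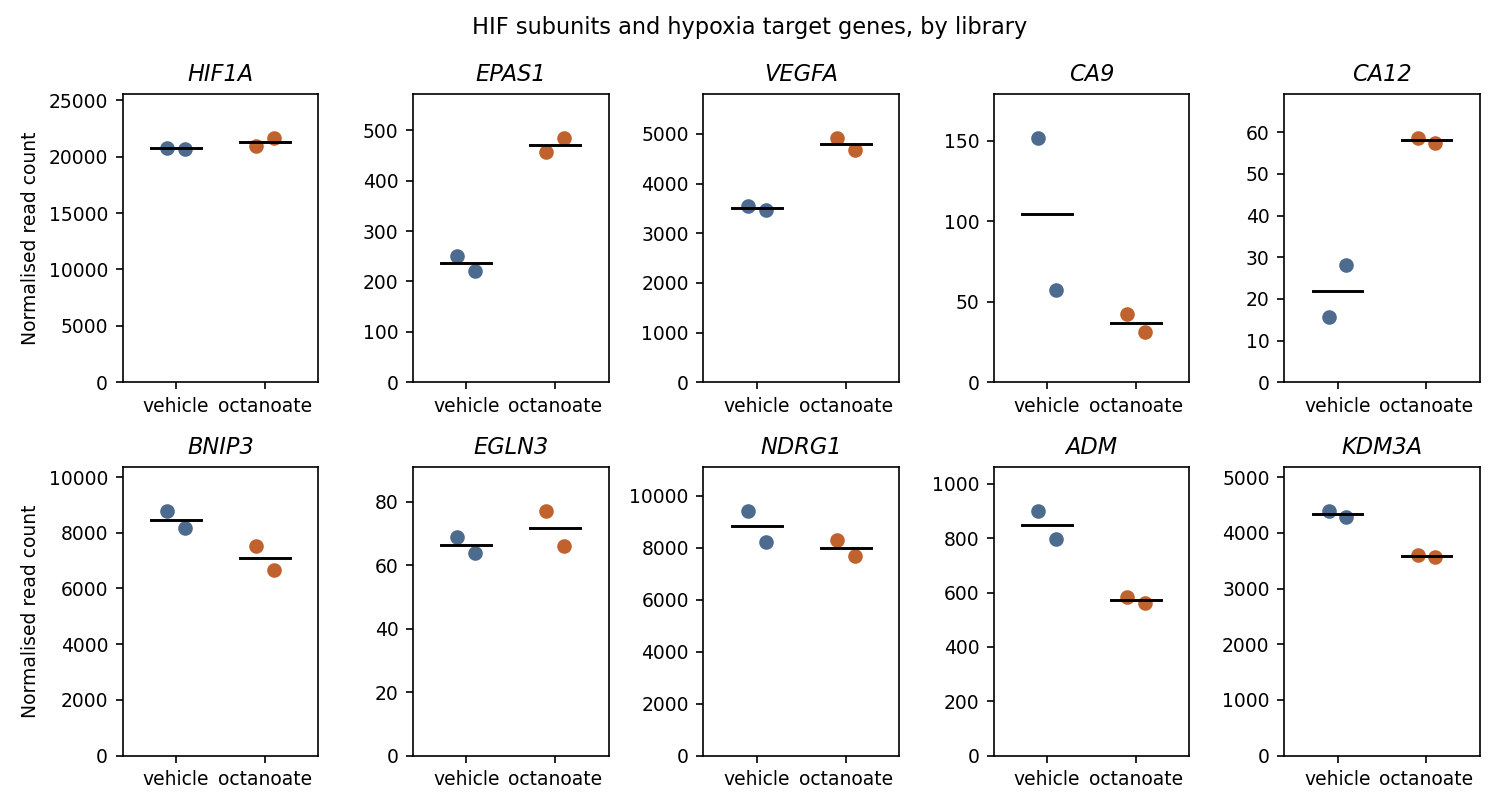
Normalised read count (y axis, linear from 0, own scale per gene) of the 10 genes in the 2 vehicle and 2 octanoate libraries, replicate 1 to the left within each group, with a line at the group mean. EPAS1, VEGFA and CA12 lie higher in both octanoate libraries, BNIP3, KDM3A, ADM and CA9 lower, and CA9 spreads from 57.2 to 152 between the vehicle libraries.

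The oxygen-regulated subunits differed in their response. HIF1A (chr14:61695513-61748259, GRCh38, GENCODE 29) encodes the alpha subunit of HIF-1. Its normalised count was 20772 and 20721 in vehicle and 20948 and 21695 in octanoate. The octanoate libraries lay above the vehicle libraries by less than the spread within the octanoate group, and the difference was 0.04 ± 0.06 (SE) in log2 units at a limma adjusted p of 0.652. EPAS1 (chr2:46293667-46386703), which encodes the alpha subunit of HIF-2, counted 251 and 220 in vehicle and 457 and 486 in octanoate. Both octanoate libraries were well above both vehicle libraries. Its mean went from 236 ± 22.2 to 471 ± 20.015 (SD, n = 2 each), a difference of 1.00 ± 0.11 (SE) in log2 units at a limma adjusted p of 1.52e-07. The largest limma adjusted p of EPAS1 over the alternative fits was 0.0298.

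The balance between the subunit transcripts therefore shifted. Ratios were taken within each library with 1 added to each count, here and for all count ratios below. HIF1A was 82.3 and 93.8 times EPAS1 in vehicle and 45.7 and 44.6 times in octanoate. The ratio changed by -0.96 on the log2 scale, a value that, apart from the added 1, does not depend on the scaling of the libraries. An exact two-sided permutation test of 2 against 2 libraries gave p = 0.333, the smallest p this design allows, for this and for the other 3 count ratios given here. Per kilobase of exon, HIF1A was the most abundant of the 10 genes in both groups, at 4028 ± 6.999 normalised counts per kb under vehicle against 4139 ± 103 under octanoate (SD, n = 2 each). EPAS1 stood at 32.3 ± 3.04 and 64.6 ± 2.74 (SD, n = 2 each), so the HIF-2 alpha transcript remained the scarcer one.

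On this per-kilobase scale the order in vehicle was HIF1A, BNIP3, NDRG1, KDM3A, ADM, VEGFA, CA9, EPAS1, EGLN3 and CA12. KDM3A at 323 ± 5.91 and ADM at 312 ± 27.0 counts per kb were not separated by their spread, and neither were CA9 at 62.7 ± 40.2 and EPAS1 (SD, n = 2 each). In octanoate VEGFA, at 333 ± 12.2 counts per kb, stood above KDM3A at 268 ± 1.90 and ADM at 210 ± 5.74, and EPAS1 stood above CA9 at 22.1 ± 4.63 (SD, n = 2 each). The exon lengths are those of GENCODE 29, and the annotation used by the submitters is not given in the sources used here.

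The genes for secreted signals went in opposite directions. VEGFA (chr6:43770184-43786487) encodes the main growth factor for blood vessels. It counted 3546 and 3475 in vehicle and 4927 and 4677 in octanoate, so that the groups lay far apart compared with their spread. Its mean rose by a factor of 1.37, a difference of 0.45 ± 0.06 (SE) in log2 units at a limma adjusted p of 2.53e-06. ADM (chr11:10304680-10307397) encodes adrenomedullin, a peptide that widens vessels. It counted 900.1 and 796 in vehicle and 582 and 560.3 in octanoate. Both octanoate libraries were lower than both vehicle libraries, and the mean fell by 32.6%, a difference of -0.57 ± 0.09 (SE) in log2 units at a limma adjusted p of 2.17e-05. The ratio of VEGFA to ADM counts was 3.94 and 4.36 in vehicle and 8.45 and 8.34 in octanoate (exact permutation p = 0.333).

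The carbonic anhydrase genes CA9 and CA12 encode membrane enzymes that hydrate carbon dioxide at the cell surface and take part in pH control. CA9 (chr9:35673856-35681159) counted 152 and 57.2 in vehicle and 42.4 and 31.4 in octanoate. Octanoate was below vehicle, but vehicle 1 stood far above the other 3 libraries. The counts rested on 155, 59, 44 and 29 reads in the same order, with exact 95% Poisson intervals of 132 to 181 and 44.9 to 76.1 reads for the vehicle libraries, which cover counting error only. The mean went from 105 ± 67.2 to 36.9 ± 7.72 (SD, n = 2 each), a difference of -1.33 ± 0.30 (SE) in log2 units at a limma adjusted p of 0.00162. Without vehicle 1 the log2 difference was -0.63 (limma adjusted p 0.168), and without vehicle 2 it was -2.03.

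CA12 (chr15:63321378-63382161) counted 15.7 and 28.1 in vehicle and 58.7 and 57.4 in octanoate, from 16, 29, 61 and 53 reads. Both octanoate libraries lay above both vehicle libraries. The mean rose from 21.9 ± 8.76 to 58.1 ± 0.903 (SD, n = 2 each), a difference of 1.42 ± 0.30 (SE) in log2 units at a limma adjusted p of 0.000701. The ratio of CA12 to CA9 had 1 added to each count and was not corrected for length. It was 0.109 and 0.5003 in vehicle and 1.38 and 1.80 in octanoate (exact permutation p = 0.333). Per kilobase of merged exon length, 1670 bases for CA9 and 7313 for CA12, CA9 remained above CA12 in both groups. In octanoate the values were 22.1 ± 4.63 against 7.94 ± 0.123 counts per kb (SD, n = 2 each). In GENCODE 29, 643 of the 1670 exon bases of CA9 overlap exons of ARHGEF39 on the opposite strand. Whether reads were assigned by strand is not given in the sources used here. ARHGEF39 counted 1322 and 1306 in vehicle and 1152 and 1159 in octanoate (log2 difference -0.19, limma adjusted p 0.0540). The part of reads from the overlapping exons in the CA9 counts was not tested.

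Of the remaining targets, BNIP3, KDM3A and NDRG1 each averaged over 1000 normalised counts, and EGLN3 was scarce. BNIP3 (chr10:131966455-131982013) encodes a receptor for mitophagy on the outer mitochondrial membrane. It counted 8780 and 8158 in vehicle and 7525 and 6678 in octanoate, a fall of the mean by 16.1%, a difference of -0.26 ± 0.06 (SE) in log2 units at a limma adjusted p of 0.00329. All vehicle values exceeded all octanoate values, yet the gap between the groups was no wider than the spread within octanoate. The call did not hold without vehicle 1 (log2 difference -0.20, limma adjusted p 0.0667) or without octanoate 2 (-0.17, limma adjusted p 0.117). BNIP3 shares 1568 bases at 97.8% identity with the pseudogene BNIP3P1, whose row counted between 26.2 and 40.2.

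KDM3A (chr2:86440647-86492716) encodes a histone demethylase that itself uses oxygen. It counted 4394 and 4282 in vehicle and 3612 and 3576 in octanoate. Both octanoate libraries lay below both vehicle libraries, by far more than the replicates differed. The mean fell by 17.1%, a difference of -0.27 ± 0.06 (SE) in log2 units at a limma adjusted p of 0.00105, and stayed between -0.29 and -0.25 when any single library was left out. NDRG1 (chr8:133237171-133302022), a stress-responsive gene known as a hypoxia marker, counted 9421 and 8242 in vehicle and 8300 and 7682 in octanoate. The groups overlapped, and the log2 difference of -0.14 (SE 0.06) did not pass the test (limma adjusted p 0.102). This depended on the fit: the limma adjusted p was 0.0203 without vehicle 2 and 0.710 without vehicle 1.

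EGLN3 (chr14:33924231-34462774) encodes a HIF prolyl hydroxylase that is itself a HIF target. It was scarce, at 68.7 and 63.9 in vehicle and 77.0 and 66.1 in octanoate, from 61 to 80 reads a library. The groups overlapped and the difference was 0.10 ± 0.20 (SE) in log2 units at a limma adjusted p of 0.749, so a change of the size seen for KDM3A was not detectable at this depth.

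**Figure D3:**
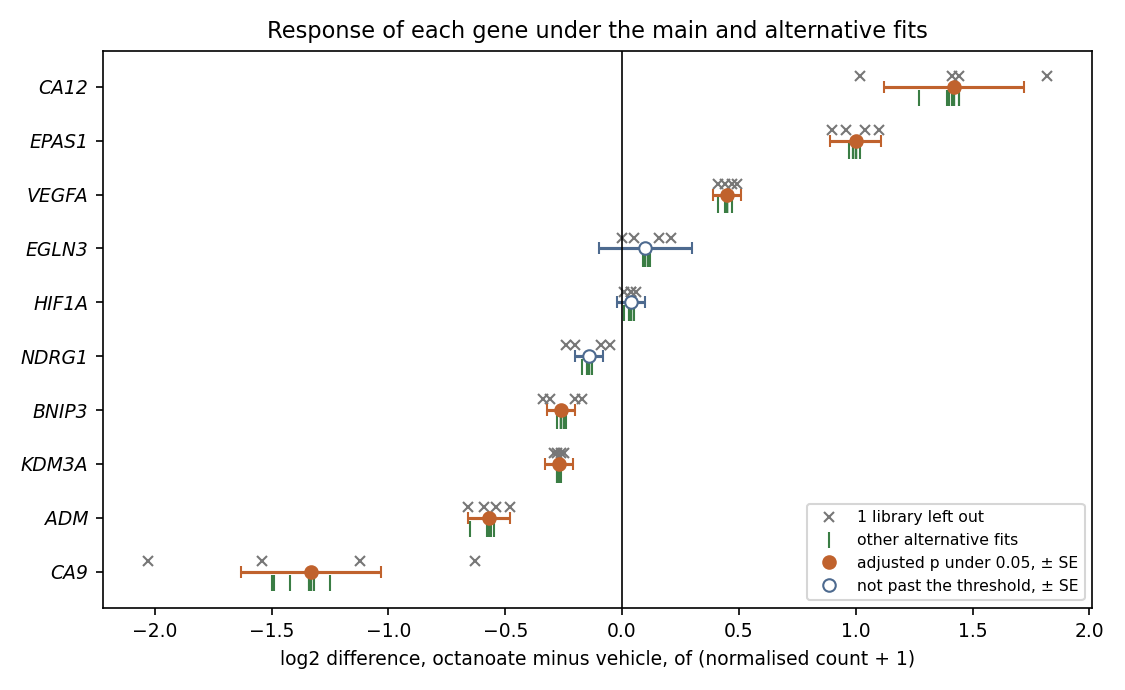
Log2 difference, octanoate minus vehicle, of each gene (x axis) with its SE from limma, filled where the adjusted p was under 0.05. Crosses are the 4 fits with 1 library left out and ticks the other alternative fits; CA9 ranged from -2.03 to -0.63 while KDM3A stayed between -0.29 and -0.25.

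A replicate difference ran through several of these genes. Replicate 1 counted more than replicate 2 for 9 of the 10 genes in vehicle and for 8 of 10 in octanoate. The same order held for 63.2% and 56.0% of all tested genes, and for 77.9% and 64.3% of those with a mean of at least 1000. CA12 was the gene that went against it in vehicle, and HIF1A and EPAS1 did in octanoate. Among 21 glycolytic hypoxia targets, replicate 1 was higher for 20 in vehicle and for 20 in octanoate. The part of this difference in the results was tested only by leaving out libraries and by a fit with the replicate number as a term.

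In the authors' deposited table, 7 of the 10 genes had an adjusted p under 0.05, the same 7 with the same signs, where 12.9% of the 33533 genes listed there did. These 33533 include genes averaging under 10, which the 20250 genes tested above do not, so the 2 shares have unlike bases. The authors' deposited table gave log2 fold changes of 1.00 for EPAS1, 1.41 for CA12 and -1.50 for CA9, with adjusted p-values of 4.94e-08, 0.0206 and 0.00555.

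Other genes of the pathway were described from lists of names, likewise chosen with earlier results of these data known. The oxygen-sensing machinery (subunits, hydroxylases, the VHL complex and related regulators) had 18 genes, of which 17 were tested. Besides EPAS1, 2 rose and 2 fell, and the 29.4% called in all was near the 29.9% over all tested genes. Without vehicle 1 or without octanoate 2, 1 gene was called lower. CITED2, which encodes a competitor of HIF for the coactivators p300 and CBP, counted 1591 and 1462 in vehicle and 2934 and 2844 in octanoate (log2 difference 0.92, limma adjusted p 1.47e-10). EGLN1, the main HIF prolyl hydroxylase and a HIF target, counted 7419 and 6886 in vehicle and 6008 and 5353 in octanoate (log2 difference -0.33, limma adjusted p 0.000267). ARNT2, a paralog of ARNT, rose with a log2 difference of 0.36 (limma adjusted p 4.93e-05). ELOB, a subunit of the VHL ligase, had one of -0.18 (limma adjusted p 0.0257), which was not called without vehicle 1, without octanoate 2 or with TMM scaling. ARNT had 0.08, VHL 0.12 and HIF1AN -0.10, none of them past the test. The median of the 17 genes was 0.01.

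Of 36 further non-glycolytic hypoxia targets, 34 were tested, 13 rose and 4 fell, with a median log2 difference of 0.19. Over all tested genes, 16.2% were called higher and 13.7% lower, with a median of 0.01. Lower calls in this list numbered 2 without vehicle 1 and 2 without octanoate 2. Among the rises with the smallest p were those of ANGPTL4, a secreted inhibitor of lipoprotein lipase that is also a target of fatty acid receptors of the PPAR family (log2 difference 5.22, limma adjusted p 3.07e-19), and STC1, which encodes stanniocalcin. STC1 counted 676 and 615 in vehicle and 3142 and 3218 in octanoate (log2 difference 2.30, limma adjusted p 2.93e-17). The falls were smaller: -0.33 for RAB20, a small GTPase, -0.25 for LOXL2, which crosslinks collagen, and -0.23 for KDM4B, a histone demethylase like KDM3A (limma adjusted p 0.000701, 0.00173 and 0.0108). KDM4B was not called without vehicle 1 or without octanoate 2. CITED2 belongs to this list as well.

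The 21 glycolytic hypoxia targets were all tested. Of these, 8 fell and 4 rose, beside 13.7% and 16.2% of all tested genes, and the median was -0.13. Without vehicle 1 or without octanoate 2, called falls no longer outnumbered called rises, but they did without vehicle 2 and without octanoate 1. DESeq2 called 12 lower and 4 higher. With no filter 3 fell and 3 rose, and without an intensity trend 0 fell and 1 rose. Octanoate lay wholly below vehicle for 14 of the 21 genes and above for 5, beside 30.5% and 32.6% of all tested genes. SLC2A1, the glucose transporter gene, counted 15895 and 14703 in vehicle and 11818 and 11125 in octanoate (log2 difference -0.41, limma adjusted p 6.89e-06). ALDOC, an aldolase gene, had -0.49 (limma adjusted p 3.35e-05) and PFKFB3, an activator of phosphofructokinase, had -0.29 (limma adjusted p 0.000345). Against these, SLC16A3, PFKP and PDK1 rose by 0.49, 0.43 and 0.47 on the log2 scale (limma adjusted p 5.26e-06, 7.21e-06 and 9.08e-06). Glycolytic targets thus also went both ways, and a difference between them and the other targets was not tested.

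Relatives of the 10 genes were examined in the same way. Among the VEGF ligands and receptors, 9 of 10 were tested. With VEGFA, 4 rose and 1 fell, beside 16.2% and 13.7% of all tested genes. Without an intensity trend, VEGFA kept its call and 0 of the other 8 tested genes were called higher. PGF, which encodes placental growth factor, counted 390 and 335 in vehicle and 569.8 and 519 in octanoate (log2 difference 0.59, limma adjusted p 1e-04). VEGFC, which encodes the ligand for lymphatic vessel growth, had 0.39 (limma adjusted p 0.000145) and the coreceptor gene NRP2 had 0.19 (limma adjusted p 0.0160). The receptor gene FLT1 had -0.22 (limma adjusted p 0.0358), a call that did not hold when any 1 library was left out, and NRP2 was not called without vehicle 2 or octanoate 2. VEGFB had -0.08 and KDR 0.25, neither past the test. Of 5 endothelial markers, PECAM1 and VWF were called higher, and KDR, CDH5 and TEK were not called. CDH5 counted 20.6 and 14.5 in vehicle and 8.66 and 21.7 in octanoate, and TEK 31.4 and 40.7 against 37.5 and 27.1. None of the 5 was at 0. Their sum, mostly KDR and PECAM1, was 612 and 617 in vehicle and 830 and 814 in octanoate. The part of such transcripts in the result was not tested.

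Of the 15 carbonic anhydrase genes, 8 were tested and 7 lay below the filter. Besides CA9 and CA12, 2 of 6 were called, both lower, beside 29.9% of all tested genes called and 13.7% called lower. The mitochondrial enzyme gene CA5B counted 1956 and 1841 in vehicle and 1567 and 1478 in octanoate (log2 difference -0.32, limma adjusted p 0.00104). The membrane enzyme gene CA14 had -0.60 (limma adjusted p 0.0134), which was not called without vehicle 1 or octanoate 1, nor by DESeq2. CA12 was the 1 tested carbonic anhydrase gene called higher in the main fit. With TMM scaling, with a replicate block or with GC and length trends removed, 1 more was called higher. CA12 was not alone without octanoate 1 either.

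In the adrenomedullin system, 5 of 8 genes were tested. ADM2, a paralog whose peptide acts on the same receptor family, went against ADM: it counted 356 and 371 in vehicle and 1025 and 1061 in octanoate (log2 difference 1.52, SE 0.09, limma adjusted p 1.88e-12). The ratio of ADM2 to ADM counts, not corrected for length, was 0.397 and 0.467 in vehicle and 1.76 and 1.89 in octanoate (exact permutation p = 0.333). The receptor gene CALCRL, which the rule for named genes left out for its low level, was also called higher (log2 difference 0.65, limma adjusted p 0.0362), and RAMP1 was not (0.17). The call of CALCRL did not hold without vehicle 1 (0.38, limma adjusted p 0.316), without octanoate 1 (0.58, 0.161) or without octanoate 2 (0.73, 0.0591), nor in DESeq2 (adjusted p 0.209). Among the paralogs of NDRG1, BNIP3 and KDM3A, NDRG4 was the 1 gene of 6 that was called (log2 difference -0.23, limma adjusted p 0.0143), and not without vehicle 1 or octanoate 2. Over all tested genes, 29.9% were called in either direction. BNIP3L had -0.09 and KDM3B had -0.11.

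**Figure D4:**
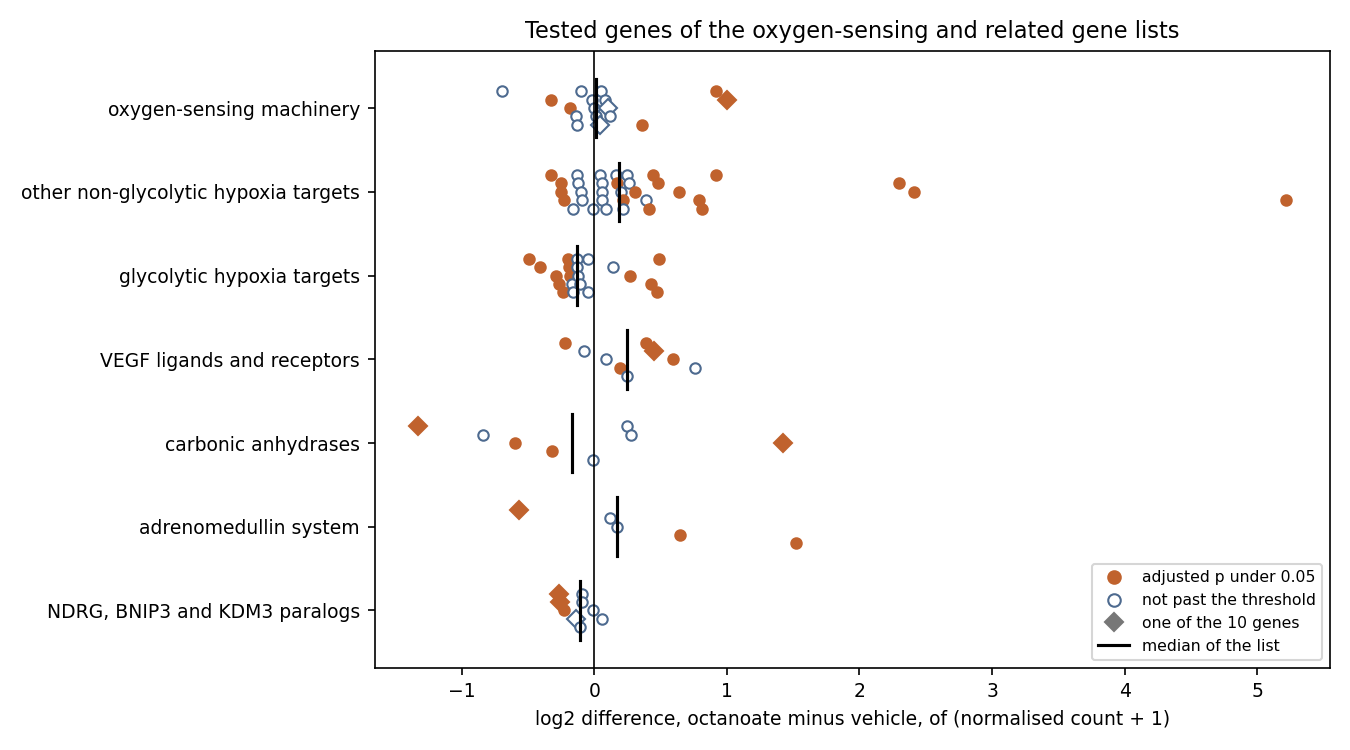
Log2 difference, octanoate minus vehicle, of the tested genes of 7 gene lists (x axis), filled where the limma adjusted p was under 0.05, with diamonds for the 10 genes and a bar at each list's median. The medians run from -0.17 for carbonic anhydrases to 0.25 for VEGF ligands and receptors, and every list but the paralogs holds called genes on both sides of 0.

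Across all 7 lists, 91 genes other than the 10 were tested. The test called 23 of them higher and 18 lower, where 16.2% and 13.7% of all tested genes were, and lower calls numbered 8 without vehicle 1 and 9 without octanoate 2. To find genes with a like pattern, log2 values were centred on each gene's mean over the 4 libraries, and root-mean-square differences were taken against the 9003 genes with a mean of at least 1000. Closest to VEGFA were SLC45A3 (0.006), SLC37A2 (0.009) and RGS10 (0.010), and closest to HIF1A were UTP14C (0.004), C2CD5 (0.005) and RDX (0.006), in log2 units over 4 libraries.

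In GENCODE 29, exons of HIF1A overlap HIF1A-AS1 on the opposite strand over 117 bases and AL137129.1 on the same strand over 148 bases, and those of VEGFA overlap AL136131.3 on the opposite strand over 188 bases. No exon overlap was found for EPAS1, CA12, BNIP3, EGLN3, NDRG1, ADM or KDM3A, and of these genes BNIP3 was the one that shared 100 or more bases at 95% identity with another gene's transcript.

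The calls depended on how the variance was modelled. Without an intensity trend in the variance prior, EPAS1 and VEGFA were still called higher, while CA12 (limma adjusted p 0.0812), ADM (0.0536), KDM3A (0.0850), BNIP3 (0.184) and CA9 (0.211) were not. With every gene in the fit, EPAS1, VEGFA, ADM and KDM3A were called and the other 3 were not.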

How the data were processed

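RNA-seq of 4 A375 libraries was compared, 2 per group. The submitters' processing notes name Trim Galore, STAR 2.4, Picard, HTSeq 0.9.1 and DESeq2, and the build hg38, with no role or order; annotation and strand setting are not given in the sources used here. The deposited signal per gene is, by its name, a DESeq2-normalised count. All values were whole multiples of a library's smallest positive value (100%, tolerance 0.0001). They were therefore taken as counts divided by 1 size factor per library, and reads were recovered. The authors' deposited comparison gives log2 fold changes, a test score and p-values.

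Differences came from limma 3.58.1 (R 4.3.3) on log2(value + 1), treatment as the only term, with an intensity trend, over 20250 genes with a mean of at least 10. This scale understates changes of low genes. All tests are two-sided, and p-values were adjusted by Benjamini-Hochberg over the tested genes. In simulated counts over 19956 genes, 66 genes were changed at each of 0.5, 1 and 2 on the log2 scale. limma recovered 66.7%, 77.3% and 97.0% of them, with 10 false calls among 169. The changed share was far below the 29.9% called in the data, and no size under 0.5 was simulated, so recovery in the data may differ. edgeR 4.0.16 (6480 genes called) and DESeq2 1.42.0 on recovered reads, other pseudocounts (0.5, 5), filters, scalings, a replicate block and leaving out each library were alternatives; 2 with GENCODE 29 genes, 1 of them with GC content and transcript length trends removed, were added after seeing the data. Shared sequence was searched with blastn 2.17.0 (95% identity, 100 bases).

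The members and lists were chosen with earlier results of these data known. Besides the 10 members, the named genes of each list are the up to 3 called genes with the smallest p in each direction and a mean of at least 100, with the 3 genes most like HIF1A and VEGFA in pattern; other genes were named after their values were seen. VEGFD and BNIP3P1 were matched by older symbols in RefSeq. A gene that this rule names is not reported here.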

Additional observations from a re-analysis of the deposited data

How the results depend on the processing

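For the 7 called genes of the 10 and the 24 list genes taken by the rule for named genes, no alternative turned the direction. Over all genes, 6048 were changed, against 2595 with no filter and 1625 without an intensity trend, and between 4295 and 4757 with 1 library left out. Of these calls 54.1% were higher, against 42.3% once trends on GC and length were taken out. Of the 10 genes, 4 were called lower, against 2 with no filter and 0 without the trend (2 had an unadjusted p under 0.05 in that limma fit, and edgeR and DESeq2 each called 4), and between 2 and 5 with 1 library left out. Among the other list genes, 23 were called higher and 8 without the trend. Lower calls numbered 18, against 4 with no filter, 0 without the trend (13 had an unadjusted p under 0.05, and edgeR and DESeq2 each called 19), 29 with GC content and length trends removed, and between 8 and 18 with 1 library left out.

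With no filter, the log2 difference lost its call for CA9 (-1.33, limma adjusted p 0.197), CA12 (1.42, 0.0700) and BNIP3 (-0.26, 0.133). Without the trend it did so for these 3 (-1.33, 1.42 and -0.26) and for ADM (-0.57) and KDM3A (-0.27). NDRG1 gained a call with equal column totals (-0.15, limma adjusted p 0.0387) and once GC and length trends were taken out (-0.17, 0.0156). With 1 library left out, CA9 ranged from -2.03 to -0.63, BNIP3 from -0.34 to -0.17 and NDRG1 from -0.24 to -0.05. The cause of these changes was not tested, except that prior degrees of freedom fell from 21.2 to 3.45 with no filter and to 1.57 without the trend. CA12 had no value with a filter at a mean of 50.

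What a replicate number stands for is not in the labels, and there are 2 pairs. Deviations of same-numbered libraries had a Pearson r of 0.270 across 13482 genes, which are not independent replicates. A replicate block for the number gave 8376 changed genes, NDRG1 a lower call (-0.14, limma adjusted p 0.00307), and 29 lower calls among the other list genes. Leaving a group with 1 library assumes that it varies like the other group. Of 384 alternative fits of these 24 list genes, 338 kept the call and none was of the opposite sign.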
